A study of Mus musculus with 4 samples.

Results

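Chemokines and inflammatory cytokines were followed in cortical nuclei of GCLC-KO mice through 9 genes chosen by symbol: the chemokines Ccl2, Ccl3, Ccl4, Ccl12, Cxcl16 and Cx3cl1, the cytokines Il1b and Tnf, and the receptor Ccrl2. These were 9 of 32285 genes counted. The nuclei came from the cerebral cortex of 4 mice, each giving 1 library. Libraries 3M-1 and 3M-2 were of age 3 months, libraries 6M-1 and 6M-2 of age 6 months, and values of the libraries are listed in that order. All 4 mice carried the same genotype, a floxed Gclc allele, Gclctm1a(EUCOMM)Wtsi on C57BL/6NTac, crossed with CaMKII-Cre, a driver that acts in forebrain neurons. Gclc encodes the catalytic subunit of the enzyme that limits glutathione synthesis. No wild-type library was analysed here, so the comparisons are between ages, between cell classes and between states of microglia within GCLC-KO mice. Nuclei were sorted on DAPI with no selection for a cell type, from cortical regions that the study chose because rod-shaped microglia were abundant there, and sex was not given in the labels.

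Chemokines are small secreted proteins that draw leukocytes along a gradient. In the brain, activated microglia are a main source of the CC chemokines Ccl3 and Ccl4 and of the cytokines Tnf and interleukin 1 beta. Cx3cl1 and Cxcl16 differ from the others in being made as membrane-bound proteins with a chemokine domain on a stalk, from which the metalloproteases Adam10 and Adam17 release them. Cx3cl1 is best known as a signal from neurons to the microglial receptor Cx3cr1. Ccrl2 is an atypical receptor that presents chemerin and does not signal through G proteins.

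The genes of 5 members lie on chromosome 11 (GRCm38 coordinates from GENCODE M21). Ccl3 (chr11:83647844-83649355, minus strand) and Ccl4 (chr11:83662584-83664683, plus strand) are neighbours, 13228 bases apart and each with 3 exons. Ccl2 (chr11:82035571-82037453) and Ccl12 (chr11:82101845-82103400), both on the plus strand with 3 exons, are separated by 64391 bases, and Cxcl16 lies at chr11:70453983-70459984 on the minus strand. The other members are at chr8:94772009-94782427 (Cx3cl1), chr2:129364570-129371139 (Il1b), chr17:35199381-35202007 (Tnf) and chr9:111054486-111057519 (Ccrl2). No 31-base word was shared between the annotated transcripts of any pair of members, so reads of Ccl3 and Ccl4, or of Ccl2 and Ccl12, were separable. Ccl2, Cxcl16 and Il1b overlap a gene on the opposite strand (Gm17268, Zmynd15 and Il1bos), and the sources used here do not state how strand entered the counting, so signal from those partners could not be told apart.

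The 250 bases before the RefSeq start (GRCm38.p6) are shown for Ccl3 and Ccl12, because these genes of the same chromosome were highest in differently marked microglial nuclei. Windows of 6 members were matched in the RefSeq table (Ccl3, Ccl12, Cx3cl1, Il1b, Tnf and Ccrl2). Capitals mark matches on either strand to the PU.1 core GAGGAA, a myeloid factor's motif, or to TATAAA. The Ccl3 window is chr11:83649379-83649628 (minus strand) and that of Ccl12 is chr11:82101595-82101844 (plus strand).
Ccl3: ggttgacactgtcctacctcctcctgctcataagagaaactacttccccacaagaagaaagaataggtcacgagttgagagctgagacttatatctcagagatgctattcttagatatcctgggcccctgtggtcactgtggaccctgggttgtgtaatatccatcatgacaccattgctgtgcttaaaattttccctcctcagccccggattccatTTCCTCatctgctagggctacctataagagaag
Ccl12: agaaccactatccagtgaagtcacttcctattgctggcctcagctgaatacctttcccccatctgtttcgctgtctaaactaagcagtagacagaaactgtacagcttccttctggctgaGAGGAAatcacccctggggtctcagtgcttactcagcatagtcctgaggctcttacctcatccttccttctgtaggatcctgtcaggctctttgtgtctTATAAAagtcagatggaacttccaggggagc
The first base of the PU.1 core lay at position -33 in Ccl3 and -130 in Ccl12, and that of TATAAA at -31 in Ccl12. GAGGAA was present in 4 of the 6 member windows and in 23.3% of all 32851 windows, and TATAAA in 4 of 6 and 12.4%. An NF-kappa-B pattern, GGG and CC with any 5 bases between, was in the windows of Ccrl2 and Tnf and in 45.8% of all windows, and the AP-1 pattern TGANTCA in none of the 6 and 6.75%. The patterns do not overlap in the printed windows, and a match is a description of letters only.

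After exclusion of nuclei with more than 7000 genes or more than 1% mitochondrial UMIs (unique molecular identifiers, the tags by which molecules are counted), the 4 libraries held 6802 to 8750 nuclei and between 59262228 and 65894316 UMIs. At most 19 barcodes were shared between any pair of libraries. Nuclei were assigned to classes by the UMIs of fixed marker lists, none of which held a member, which gave 2078 microglia-like nuclei, 15844 excitatory and 2820 inhibitory neuron-like nuclei, and 4074 oligodendrocyte-like, 727 oligodendrocyte precursor (OPC)-like and 210 astrocyte-like nuclei. The microglia-like gate held 462, 362, 695 and 559 nuclei of the libraries, with median depths of 2206, 1383, 1684 and 2018 UMIs. Its median level of the 23-gene microglial list (Csf1r, C1qa, P2ry12 and others) was 197 UMIs per 10000, against 1.59 in excitatory neuron-like nuclei. Gclc, the targeted gene, was counted at 42.6, 34.0, 34.9 and 36.8 CPM in excitatory and 48.4, 37.4, 38.9 and 44.4 in inhibitory neuron-like nuclei. These 3′ tags need not lie in the deleted part and no wild-type library was compared, so Gclc does not check the genotype.

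Most of the members were microglial in these nuclei. Levels are counts per 1000000 UMIs (CPM) of a class in 1 mouse, and they were compared between classes of nuclei for 1 gene at a time, since counts at the 3′ end were not scaled by length and no order between genes was drawn. In bulk sums of this kind, fewer expressing nuclei and less RNA per nucleus cannot be told apart. The microglia-like nuclei were 6.81% of the nuclei and held 1.62% of the UMIs, yet between 42.4% (Il1b) and 59.1% (Ccl12) of the UMIs of every member other than Cx3cl1. For Il1b the excitatory neuron-like nuclei, which were far more numerous, held 48.5% of the UMIs. Nuclei that fell in no gate were 15.1% of the nuclei. They held between 7.58% (Il1b) and 39.4% (Ccl2) of the UMIs of the members other than Cx3cl1.

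Ccl4, a CC chemokine of activated myeloid cells, was at 90.8 and 93.4 CPM in the microglia-like nuclei of the 3-month mice and at 59.9 and 107 in those of the 6-month mice. The highest value in the other 5 classes compared was 10 CPM, in the astrocyte-like nuclei of 3M-1, where it rested on 2 UMIs. Microglia-like nuclei were above each of these 5 classes in every library, without overlap. In gates too small to compare, 1 Ccl4 UMI was counted in border macrophage-marked nuclei of 6M-1 and 2 in pericyte- or fibroblast-marked nuclei of 6M-2.

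Ccl3, a ligand of Ccr1, was at 49.3, 27.0, 23.0 and 35.6 CPM in microglia-like nuclei. No UMI of Ccl3 was found in OPC-like or astrocyte-like nuclei. In the few astrocyte-like nuclei of 6M-1, a count of 0 allows up to 28.3 CPM at the limit of 3 counts. That is above the microglial level of this library. Ccl12, a ligand of Ccr2 found in mice, was at 16.4, 50.3, 21.5 and 28.8 CPM, highest in 3M-2. Its level in 6M-1 is also under the limit of 28.3 CPM in astrocyte-like nuclei of that library. Cxcl16, the ligand of Cxcr6, was at 35.7, 61.1, 61.4 and 56.8 CPM, lowest in 3M-1. Border macrophage-marked nuclei, too few to compare, held 1 Cxcl16 UMI in each of 6M-1 and 6M-2 and 2 Ccl12 UMIs in 3M-2. Pericyte- or fibroblast-marked nuclei of 6M-1 held 1 Cxcl16 UMI.

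The remaining microglial members were sparse. Ccl2, the main ligand of Ccr2, gave 2, 5, 4 and 4 UMIs in the microglia-like nuclei of the 4 libraries. Il1b gave 6, 3, 4 and 15 UMIs, Tnf gave 6, 18, 7 and 20, and Ccrl2 gave 4, 4, 9 and 10. Tnf was at 32.3 and 16.9 CPM in 3M-2 and 6M-2 and at 5.80 and 5.37 in 3M-1 and 6M-1. Its libraries thus differed more within than between ages. The libraries 3M-2 and 6M-2 carry the same batch label, as do 3M-1 and 6M-1, so this split follows the batch label. The part of batch in it was not tested. For each of these genes the microglia-like nuclei of every library were above each of the other 5 classes compared. In astrocyte-like nuclei, however, 3 counts, taken here as the limit of a count of 0, would be 14.9 to 28.3 CPM. In each library that limit exceeds the microglial level of Ccl2, Il1b and Ccrl2, and of Tnf except in 3M-2. In OPC-like nuclei 3 counts would be 3.119 to 5.395 CPM. That is above the microglial level of Ccl2 in 3M-1, 6M-1 and 6M-2 and of Il1b in 6M-1. In 3M-2 it is also just above that of Il1b (5.395 against 5.39 CPM). The order of these genes against astrocyte-like and OPC-like nuclei is therefore not settled there. The 2 Ccl2 UMIs of 3M-1 are themselves under 3 counts.

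In the fit of all classes with mouse as a block, 5 members passed the filter on low counts. Ccl3, Ccl4, Ccl12 and Cxcl16 were higher in microglia-like nuclei than in the mean of the other 5 classes, as were 34% of the 14104 genes tested (66.2% were called in either direction). The largest of their 4 adjusted p-values was 2.65e-13 (edgeR quasi-likelihood test, Benjamini-Hochberg). These 4 genes passed the filter through the microglia-like nuclei, where they are high. Their direction was thus set by the filter, and the share of all genes called higher is no fair background for them. Each of these genes was at 0 in every library of at least 1 class, so the fitted fold depends on the prior count. Against excitatory neuron-like nuclei over all libraries, the ratio of levels was 138 for Ccl3 (138 against 43 UMIs), 148 for Ccl4 (350 against 102), 171 for Ccl12 (107 against 27) and 119 for Cxcl16 (218 against 79). Without the filter on low counts Ccl2, Il1b, Tnf and Ccrl2 were also called higher.

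**Figure D1:**
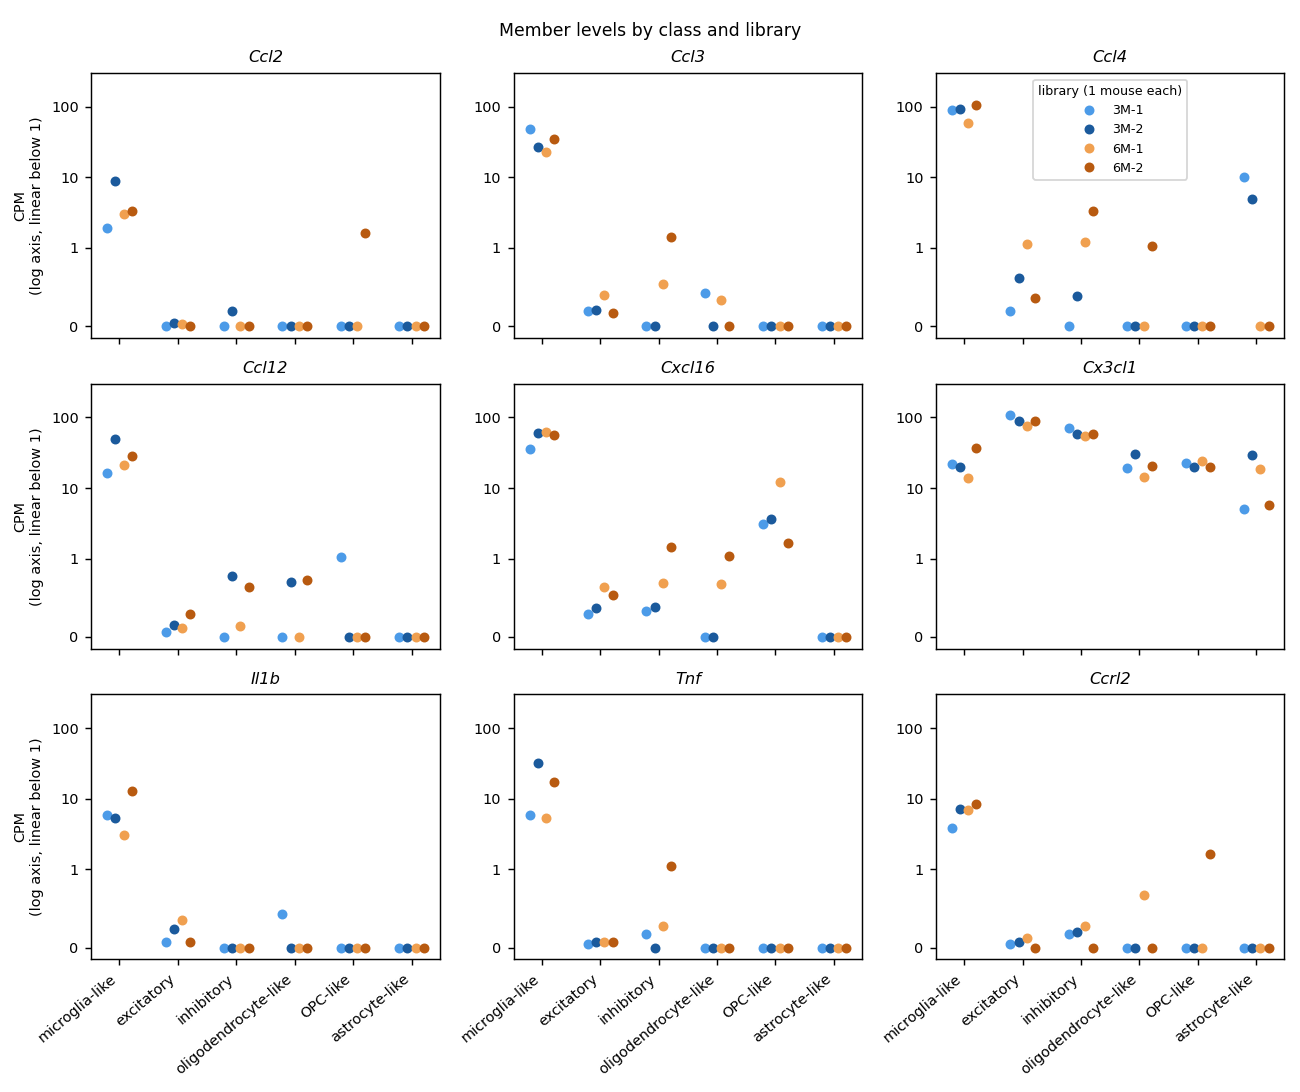
Level of each member in CPM (log axis, linear below 1) in 6 classes of nuclei, 1 point per library with blue for 3 months and orange for 6 months. All members but Cx3cl1 are highest in microglia-like nuclei in every library, whereas Cx3cl1 is highest in excitatory neuron-like nuclei at 74.8 to 108. A count of 0 in astrocyte-like nuclei allows 14.9 to 28.3 CPM at the limit of 3 counts, and in OPC-like nuclei 3.119 to 5.395 CPM.

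Cx3cl1 showed the opposite distribution, with 79.8% of its 20054 UMIs in excitatory and 7.42% in inhibitory neuron-like nuclei. Its level in excitatory neuron-like nuclei was 108, 90.6, 74.8 and 90.6 CPM, and the inhibitory level was 70.3, 57.9, 54.1 and 58.9. Excitatory nuclei were above inhibitory nuclei in every mouse, and the groups did not overlap. A UMI was found in 63.9%, 48.7%, 52.5% and 59.0% of excitatory neuron-like nuclei, whose median depths were 11461, 7796, 10185 and 10914.5 UMIs, so the share and the depth were both highest in 3M-1 and lowest in 3M-2.

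The difference between the neuron classes was 0.78 ± 0.10 on the log2 scale (SE of the fit, 4 mice), or 1.72-fold, with an adjusted p of 8.82e-08 (edgeR). This came from the fit of all classes with mouse as a block, whose spread is pooled over the classes. Differences of that fit are after scaling of the sums over unlike classes (TMM) and are not ratios of the CPM. The fitted fold is larger than the ratio of the mean levels, 90.9 CPM in excitatory and 60.3 in inhibitory neuron-like nuclei. Of all genes tested, 25.2% were called higher in excitatory than in inhibitory neuron-like nuclei. No other tested member was called between the neuron classes, while without the filter on low counts Il1b was called higher in excitatory and Ccl4 and Tnf lower. In microglia-like nuclei Cx3cl1 was at 22.2, 19.8, 13.8 and 36.4 CPM, lower than the mean of the other classes by 0.77 ± 0.22 on the log2 scale (adjusted p = 0.00233, edgeR), where 32.2% of genes were called lower.

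The neighbours in the lower part of the order did not differ beyond their spread: microglia-like (23.1 ± 9.58), OPC-like (21.7 ± 2.33), oligodendrocyte-like (21.2 ± 6.90) and astrocyte-like nuclei (14.9 ± 11.8; mean ± SD, n = 4). RNA freed from neurons can give such counts. The level of Cx3cl1 in oligodendrocyte-like nuclei was 17.6% to 34.0% of that in excitatory nuclei of the same library. For the summed 4-gene neuronal list (Rbfox3, Snap25, Syt1, Rbfox1) that percentage was 4.91% to 7.36%. In microglia-like nuclei the corresponding ranges were 18.5% to 40.2% and 7.25% to 9.63%, and in OPC-like nuclei they were 21.2% to 32.7% and 21.8% to 24.8%. For the 10-gene excitatory neuron list the percentage was 5.77% to 10.6% in oligodendrocyte-like, 12.2% to 16.8% in microglia-like and 16.9% to 18.9% in OPC-like nuclei, so how far Cx3cl1 lay from the neuronal lists depended on the class and the list. The gates of glial nuclei set an upper limit on UMIs of the 4-gene neuronal list, which capped its percentages in advance. Cx3cl1 was in no marker list and had no such limit. The gap between Cx3cl1 and the 4-gene list was thus partly set by the gates and cannot measure free RNA. Whether free RNA accounts for Cx3cl1 in glial nuclei was not tested.

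Some UMIs of the CC chemokines were found in nuclei gated as neurons, and they were concentrated in few of them. Of 102 Ccl4 UMIs in excitatory neuron-like nuclei, 48 came from 8 nuclei with 3 or more each, and the highest nucleus had 18. These 8 nuclei also held 20 Ccl3 UMIs. Their median level of the microglial list was 15.8 UMIs per 10000, against 1.59 in the 15791 excitatory nuclei without Ccl4, and their median depth was 18562 against 9851 UMIs. In inhibitory neuron-like nuclei, 4 nuclei (1 of 6M-1 and 3 of 6M-2) held 23 of 32 Ccl4 UMIs, with a median microglial list level of 18.9 against 2.05. The part of doublets in these counts was not tested.

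Within microglia the CC chemokines Ccl3 and Ccl4 were higher in nuclei marked for the disease-associated state. Disease-associated microglia (DAM) are a state described in models of neurodegeneration in which phagocytic and lipid-handling genes rise. A nucleus was called DAM-marked where 2 or more genes of a fixed DAM list (Itgax, Cst7, Lpl, Spp1, Igf1, Gpnmb, Axl and others, with 17 measured) had a UMI after it was thinned to 1000 UMIs. This gave 102, 56, 191 and 142 DAM-marked nuclei, or 23.6%, 20.4%, 28.8% and 25.8% of those deep enough. The mark is a range and not a type, since 246 of the 491 DAM-marked nuclei had exactly 2 genes of the list and 578 other nuclei had 1. No member was in the list, and genes of the list were left out of the test.

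Ccl4 was at 237, 278, 126 and 258 CPM in DAM-marked nuclei, and at 26.5, 19.0, 32.0 and 51.4 in the other microglia-like nuclei. The states did not overlap. The difference was 2.61 ± 0.20 on the log2 scale (SE of the fit, 4 mice), or 6.11-fold. Its adjusted p was 5.01e-14 (edgeR, mouse as a block). DAM-marked nuclei held 27.6% of the UMIs of these microglia and 69.4% of those of Ccl4.

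Ccl3 was at 140, 104, 57.8 and 88.2 CPM in DAM-marked and at 17.2, 8.12, 6.85 and 15.2 in other nuclei, again without overlap. It was higher by 2.91 ± 0.29 on the log2 scale, or 7.53-fold, with an adjusted p of 1.13e-10 (edgeR). DAM-marked nuclei held 99 of its 134 UMIs in these nuclei. The calls of Ccl3 and Ccl4 were made under all 13 alternatives, at 2.82 to 3.14 and 2.44 to 2.86 on the log2 scale.

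Cxcl16 was at 42.7, 156, 72.8 and 85 CPM in DAM-marked and at 33.1, 29.8, 57.1 and 46.7 in other nuclei. It was higher in DAM-marked nuclei in 4 of 4 mice, by 0.82 ± 0.25 on the log2 scale (1.76-fold, adjusted p = 0.022, edgeR), but the states overlapped. Without 3M-2 it was 0.53 and not called (adjusted p = 0.276), without 6M-2 it was 0.82 (adjusted p = 0.0738), and without the mouse as a block it was 0.88 (adjusted p = 0.152).

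Of the 9 members, 4 passed the filter on low counts in this comparison and 3 were called higher, where 5.2% of the 7095 genes tested were called higher and 4.89% lower (10.1% in either direction). Ccl3 and Ccl4 passed this filter only with the DAM-marked nuclei, where they are high. In the other nuclei Ccl3 reached the cut in no mouse, and Ccl4 missed it in 3M-2. The direction of Ccl3 was thus set by the filter, and that of Ccl4 was favoured by it. The 3 of 4 is therefore no fair count against the share of all genes. The fourth tested member, Ccl12, differed by 0.41 ± 0.36 on the log2 scale (adjusted p = 0.608, edgeR). Ccrl2, which did not pass the filter, gave 15 UMIs in DAM-marked and 11 in other nuclei and was higher in CPM in 4 of 4 mice. Tnf gave 1, 12, 0 and 15 UMIs in DAM-marked and 5, 6, 7 and 5 in other nuclei of the 4 mice. It was higher in DAM-marked nuclei of 3M-2 and 6M-2 only, which share a batch label. Without the filter Tnf was called (1.57 ± 0.45, adjusted p = 0.0153, edgeR). Il1b gave 12 UMIs in DAM-marked and 16 in other nuclei, Ccl2 gave 5 and 7, and Cx3cl1 gave 19 and 70.

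Marker lists of other cell types differed between the states in both directions. The 8-gene list of border macrophages was lower in DAM-marked (155 to 193 CPM) than in other nuclei (217 to 417), and the T or NK cell list was at 0 to 12.6 in both. The 7-gene endothelial list was higher, at 62.0 to 167 against 45.5 to 59.6. The 9-gene monocyte or neutrophil list was higher in 4 of 4 mice, at 678 to 1090 against 633 to 847. The 11-gene oligodendrocyte list was higher in 4 of 4 mice, at 194 to 315 against 176 to 301, and so was the IRM list of interferon-stimulated genes described further on, at 1373 to 1813 against 828 to 1515. In 6M-1 the OPC list (246 against 104) and the inhibitory neuron list (321 against 209) were also higher in DAM-marked nuclei, while the neuron and astrocyte lists were lower in 4 of 4 mice. The part of these cell types in the result was not tested. The 13 immediate early and tissue handling genes, a group that rises when cells are stressed during dissociation, summed to 295, 460, 264 and 611 CPM in DAM-marked and to 241, 317, 267 and 313 in other nuclei. This sum was higher in DAM-marked nuclei in 3 of 4 mice and lower in 6M-1. Atf3, a gene of this group picked after its values were seen, was higher in 4 of 4 mice. The part of tissue handling in the result was not tested. Median depth was 2056 UMIs in DAM-marked and 1847 in other nuclei.

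The other genes of these pathways that were tested had smaller fitted differences than Ccl3 and Ccl4. Atf3 did not pass the filter on low counts and has no fitted difference. Its mean, looked at after its values were seen, was 45.03 CPM in DAM-marked and 4.96 in other nuclei. For Ccl3 the means were 97.4 and 11.8 CPM. Of the lists of other chemokines, chemokine receptors, interleukin 1 and TNF pathways, sheddases, NF-kappa-B factors and immediate early genes, 28 genes were tested, of which 3 were called higher and 3 lower in DAM-marked nuclei. Among all 7095 genes tested, 5.2% were called higher and 4.89% lower. Ccl6, another CC chemokine of myeloid cells, was higher by 1.11 ± 0.32 on the log2 scale (adjusted p = 0.0141, edgeR). The NF-kappa-B family genes Nfkbiz and Relb were higher by 1.09 ± 0.22 and 0.74 ± 0.24. Cx3cr1, the receptor of Cx3cl1, fell by 0.34 ± 0.09 on the log2 scale (adjusted p = 0.00818, edgeR).

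Gsdmd, the pore-forming protein cleaved in pyroptosis, fell by 0.57 ± 0.19 (adjusted p = 0.0411). Of the genes chosen to be named in any case, Tnfaip3, a feedback inhibitor of NF-kappa-B, was at 0.72 ± 0.28 (adjusted p = 0.0946), Jun at 0.68 ± 0.32 (adjusted p = 0.208), Adam10 at -0.30 ± 0.14 (adjusted p = 0.212), Adam17 at 0.08 ± 0.13, Il1a at -0.36 ± 0.34, Nfkbia at -0.23 ± 0.26 and Tnfrsf1b at -0.06 ± 0.21 on the log2 scale (edgeR).

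**Figure D2:**
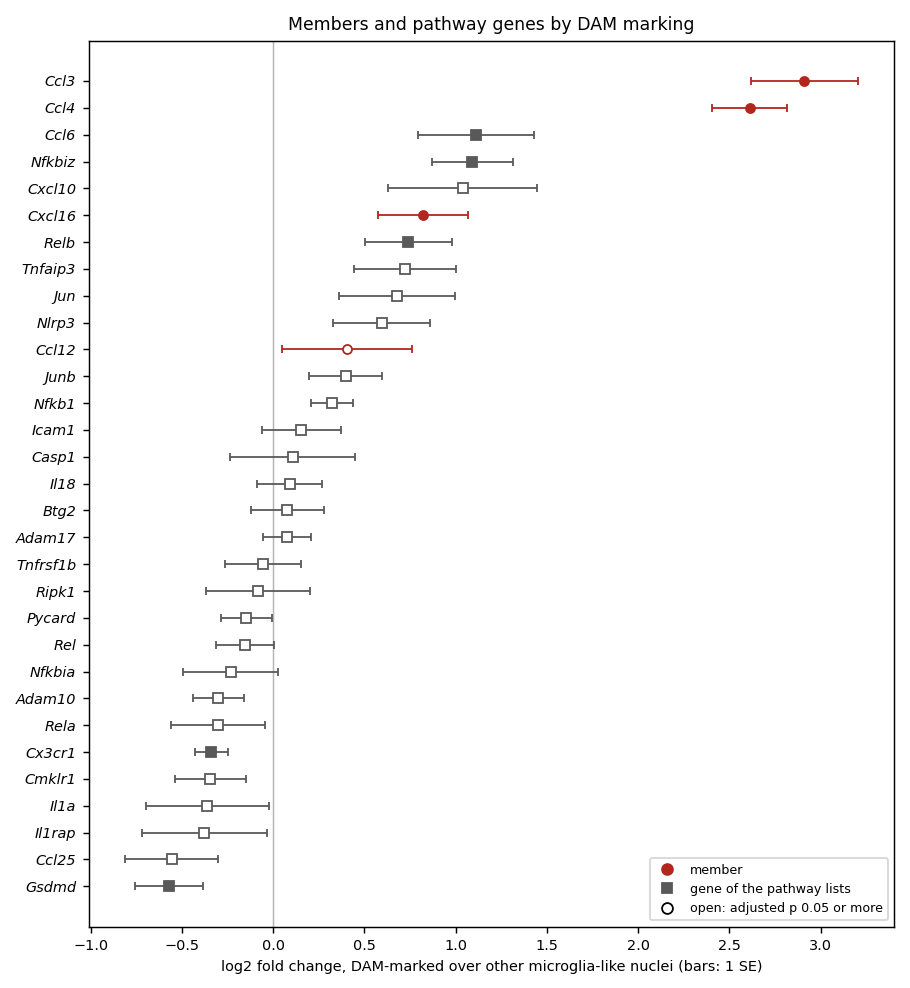
Log2 fold change of members (red circles) and the pathway genes reported here (grey squares) in DAM-marked over other microglia-like nuclei of 4 mice, with bars of 1 SE and open symbols where the adjusted p is 0.05 or more. Ccl3 at 2.91 and Ccl4 at 2.61 lie to the right of all other genes shown. Genes that did not pass the filter on low counts, Atf3 among them, are not shown.

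Ccl12 was higher in nuclei marked for an interferon response, and so was Ccl2 on few UMIs. Nuclei were called IRM-marked (interferon-response microglia) by the same rule with a list of interferon-stimulated genes (Ifit1, Ifit3, Rsad2, Oasl2, Isg15 and others, with 15 measured), which gave 62, 49, 188 and 106 nuclei. The values of this state are given as a description with no test, and how many of all genes separate the same way was not counted. Of all microglia-like nuclei deep enough, 122 carried both marks, 369 only the DAM mark and 283 only the IRM mark.

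Ccl12 was at 76.0, 122, 43.5 and 84.8 CPM in IRM-marked nuclei, and at 6.91, 27.9, 11.03 and 15.8 in the others. Its mean was 81.5 ± 32.2 against 15.4 ± 9.08 (SD, n = 4), and the groups did not overlap. IRM-marked nuclei held 21% of the UMIs and 57.6% of those of Ccl12. Ccl2, with only 12 UMIs in these nuclei, had 9 of them in IRM-marked nuclei and was higher there in CPM in 4 of 4 mice. Its UMIs by library were 1, 2, 3 and 3 in IRM-marked and 1, 1, 0 and 1 in other nuclei. In 3M-1 the counts were equal, so the higher CPM came from the smaller UMI total of IRM-marked nuclei.

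Ccl3 and Ccl4 were not ordered this way. Ccl3 was lower in IRM-marked nuclei in 3 of 4 mice (means of 22.6 and 37.0 CPM), and Ccl4 was 90.8 ± 40.2 against 79.9 ± 17.1 with overlap.

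**Figure D3:**
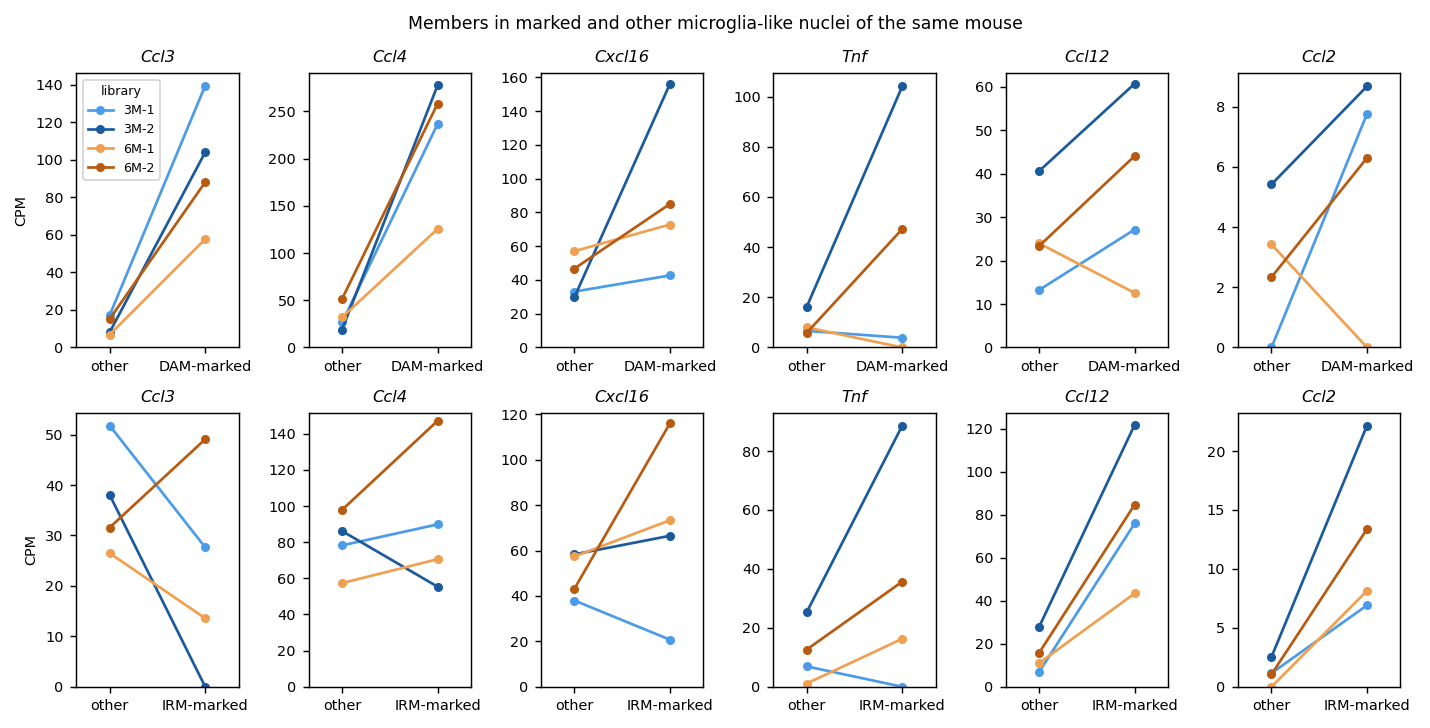
Level of 6 members in CPM in DAM-marked (top row) or IRM-marked (bottom row) and other microglia-like nuclei, with a line joining the nuclei of 1 mouse. Ccl3 and Ccl4 rise in the top row in all 4 mice, and Ccl12 and Ccl2 are higher in the bottom row in all 4. Ccl2 rests on 9 UMIs in IRM-marked and 3 in other nuclei.

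Ccl3 and Ccl4 were often detected in the same nuclei. Among 83 microglia-like nuclei with a Ccl3 UMI, 51.8% also had a Ccl4 UMI, against 5.46% of the nuclei without Ccl3. In the 4 libraries these values were 37.9% against 5.54%, 55.6% against 5.38%, 42.9% against 5.19% and 75% against 5.79%. Median depth was 2108 UMIs with and 1818 without Ccl3.

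The counts of Ccl4 were concentrated. Of its 350 UMIs in microglia-like nuclei, 59.7% came from 37 nuclei with 3 or more, and the highest nucleus had 15. Cxcl16 was spread more evenly, with 5.5% of 218 UMIs in nuclei with 3 or more and 180 nuclei with a UMI. Tnf was found in 7.24% of nuclei with Ccl4 and 0.935% of those without, and Ccl12 in 3.95% and 3.43%. Of 14 nuclei with a Ccl2 UMI, 7 had a Ccl12 UMI, against 3.15% of the rest. These are descriptions over nuclei, which are not replicates.

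Between 3 and 6 months no member was called in any class. In microglia-like nuclei 6 members passed the filter, and 0 were called by edgeR or DESeq2, with 0 at an unadjusted p under 0.05, where 1231 of 11086 genes had such a p and 0.532% were called (0.361% higher and 0.171% lower). The count over all genes, 59, rested on the libraries used, and was 773 without 3M-2, 307 without 3M-1 and 33 without 6M-1. With the batch number of the labels as a replicate block it was 164, and in excitatory neuron-like, oligodendrocyte-like and OPC-like nuclei the block took it from 1 to 17, 2 to 44 and 1 to 21, with no member called. The fitted differences, 6 over 3 months on the log2 scale, were -0.49 ± 0.35 for Ccl3, -0.17 ± 0.26 for Ccl4, -0.28 ± 0.44 for Ccl12, 0.34 ± 0.28 for Cxcl16, 0.20 ± 0.44 for Cx3cl1 and -0.58 ± 0.67 for Tnf (SE, 2 against 2 mice). The adjusted p-values ran from 0.678 for Ccl3 to 0.923 for Cx3cl1 (edgeR). Their median was -0.228, against 0.00819 over all genes tested. The 95% interval of the difference, from its SE, was -1.17 to 0.193 for Ccl3 and -0.674 to 0.327 for Ccl4, so smaller changes were not detectable here. Each of the 6 changed sign when some library was left out.

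Cx3cl1 in excitatory neuron-like nuclei was lower at 6 months by 0.29 ± 0.18 on the log2 scale without being called (adjusted p = 0.82, edgeR), where 0.00508% of 19674 genes were called. The lowest library was 6M-1 at 74.8 and the highest 3M-1 at 108 CPM, while 3M-2 and 6M-2 were both at 90.6. In inhibitory neuron-like nuclei the difference was -0.18 ± 0.16 (adjusted p = 0.934), in oligodendrocyte-like nuclei -0.55 ± 0.30 (adjusted p = 0.774, where 0.0164% of genes were called, all higher) and in OPC-like nuclei 0.06 ± 0.42 (0.0112% called, all higher). In excitatory nuclei Cxcl16 (0.81 ± 0.42), Ccl4 (0.86 ± 0.65) and Il1b (0.46 ± 0.83) were also tested and not called, and in astrocyte-like nuclei no member passed the filter. Ccl4 in inhibitory neuron-like nuclei was called higher at 6 months when the filter on low counts was dropped (3.50 ± 0.85, adjusted p = 0.0162) and when 3M-2 was left out (6.87 ± 1.89, adjusted p = 0.0113). There, 4 nuclei held 23 of its 32 UMIs.

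The difference between DAM-marked and other nuclei was not called as differing between ages for any member. For Ccl4 it was smaller at 6 months by 1.18 ± 0.41 on the log2 scale, with an unadjusted p of 0.00423 and an adjusted p of 0.292 (edgeR), where 606 of 8158 genes had an unadjusted p under 0.05 and 0.441% were called. For Ccl3, Ccl12, Cxcl16 and Tnf the differences between ages were -0.42 ± 0.66, -0.60 ± 0.72, -0.69 ± 0.47 and -0.26 ± 1.05 (lowest adjusted p of the 4 = 0.832). Of the pathway genes tested in microglia-like nuclei, none was called between ages (edgeR). Among the genes chosen to be named, Il1a was at -1.16 ± 0.42 (adjusted p = 0.271), Cx3cr1 at -0.39 ± 0.14 (adjusted p = 0.295), Jun at -0.70 ± 0.31 (adjusted p = 0.397) and Adam10 at -0.36 ± 0.16 (adjusted p = 0.398), each with an unadjusted p below 0.05, as had 1231 of the 11086 genes tested.

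In microglia-like nuclei Cx3cr1 was at 956 and 1030 CPM at 3 months and at 738 and 801 at 6 months, a difference that was not called. Egr1, an immediate early gene, was at 16.4, 30.6, 19.2 and 64.4, and Adam10 at 315, 273, 233 and 236. Egr1 was highest in 3M-2 and 6M-2, which share a batch label. Cxcr6, the receptor of Cxcl16, was at 6.76, 18.0, 23.0 and 11.01, and Tnfrsf1a at 28.0, 19.8, 20.7 and 16.1. Ccr1 had at most 3 UMIs, Fos at most 9, Il1r1 at most 14, and Il1rn at most 1 UMI in the microglia-like nuclei of any library.

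The share of microglia-like nuclei with a UMI was compared after each nucleus was thinned to 1000 UMIs, which left out 29, 88, 32 and 9 shallower nuclei. Ccl4 was found in 5.31%, 4.74%, 4.22% and 6.00% of 433, 274, 663 and 550 nuclei, with 95% Wilson intervals that overlap (the widest from 2.79% to 7.95% in 3M-2). The mean was 5.03% at 3 and 5.11% at 6 months. In oligodendrocyte-like nuclei, which should lack the gene, at most 0.181% had a UMI, with median depths before thinning of 1787 to 2866 UMIs against 1616 to 2292 in microglia-like nuclei. Without thinning the shares were 7.58%, 6.63%, 6.33% and 8.77%.

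Ccl3 was found in 3.70%, 1.09%, 2.26% and 2.55% of thinned nuclei, with a mean of 2.40% at both ages. Ccl12 was found in 0.693%, 2.92%, 2.56% and 2.73%, and Tnf in 0.924%, 2.19%, 0.302% and 1.82%. Ccl2 and Il1b had a UMI in at most 1.09% and 0.909% of the nuclei of a library, near the 0.452% to 1.09% that a count of 0 would allow. Cx3cl1 was found in 1.66% to 4.18% of microglia-like and in 1.56% to 3.19% of oligodendrocyte-like nuclei. It was at or below the oligodendrocyte-like share in 3M-2 and 6M-1, where it is not read as expression, and above it in 3M-1 (2.31% against 1.56%) and 6M-2 (4.18% against 2.00%).

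Cxcl16 and Ccrl2 were the only members whose ages did not overlap. Cxcl16 was at 3.46% and 4.01% at 3 months and at 4.98% and 5.45% at 6 months, a difference of 1.48 percentage points. Ccrl2 was found in 0 of 433 nuclei of 3M-1, which allows a share of up to 0.693% at the limit of 3 counts (0.879% as the upper Wilson bound), in 0.365% of 3M-2, and in 1.06% and 1.27% of 6M-1 and 6M-2. Both 6-month libraries were above both 3-month libraries for 22.3% of the 12411 genes with a UMI in at least 10 of the thinned nuclei. Il1b, found in 9 nuclei, is not among these genes. The 2 members of the 9 are near this background. The exact permutation test gave p = 0.333 for each (two-sided, the smallest value that 2 against 2 can give), 0.667 for Tnf and 1 for the other 6 members. Thinning to 1500 UMIs turned the mean difference of Cxcl16 to -0.649 and that of Ccrl2 to -0.453 percentage points, and without thinning it was 2.97 and 0.557. All intervals cover counting error only.

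**Figure D4:**
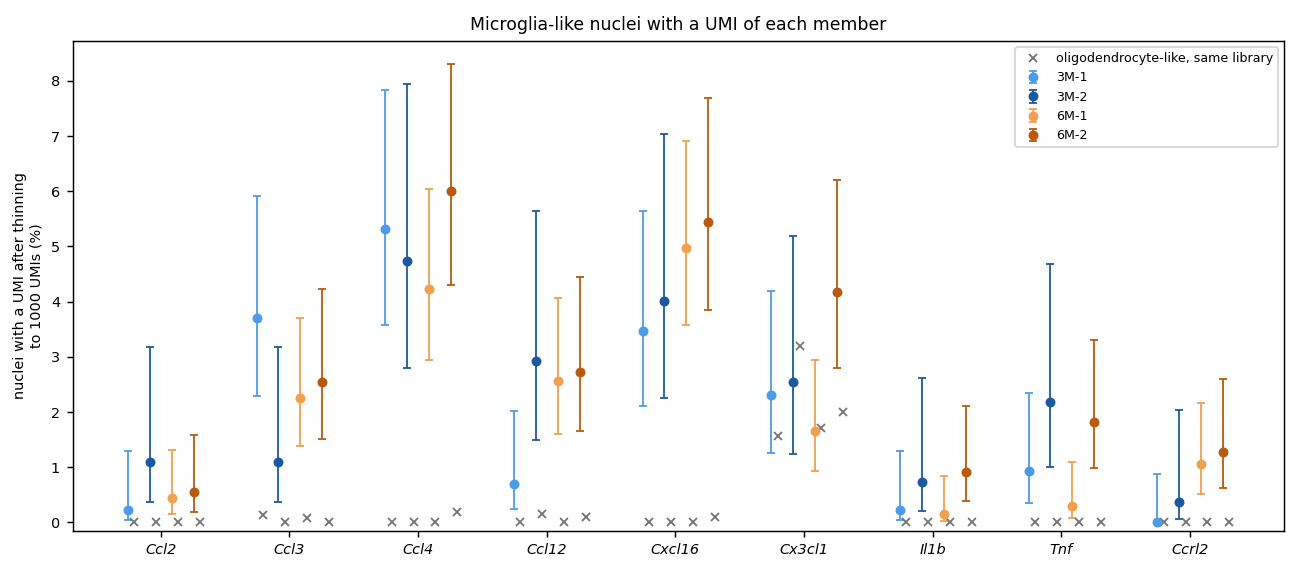
Percent of microglia-like nuclei with a UMI of each member after thinning to 1000 UMIs, per library with 95% Wilson intervals, and the same percent in oligodendrocyte-like nuclei of that library as grey crosses. Ccl4 is at 4.22% to 6.00% with overlapping ages, and the crosses are at 1.56% to 3.19% for Cx3cl1 and at most 0.181% for every other member.

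The genes most like each member across 24 sums (6 classes in 4 libraries) were listed by Pearson r of log2(CPM + 1) over 18788 genes, a pattern that the contrast of classes dominates. Ccl4 was most like Fgd2 (0.985), Bcl2a1b (0.968) and Cysltr1 (0.964), and Ccl3 was most like Rhbdf2 (0.992), Xlr (0.992) and 1700001C19Rik (0.991). For Ccl12 these included Arhgap9 (0.983) and Gm15635 (0.982), and for Cxcl16 they were Gm13479 (0.973), Slfn8 (0.968) and Nfkbie (0.965). Tnf was most like Clec5a (0.974), Plau (0.972) and Gm10384 (0.969), and Cx3cl1 was most like Galnt14 (0.943), 5330417C22Rik (0.935) and Cabp1 (0.933). The points share libraries, and r is a description.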

How the data were processed

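Cortical nuclei of 4 GCLC-KO mice were profiled with the 10x Genomics 3′ v3.1 kit per the labels (version 3 in the study's methods). The authors deposited raw UMI counts per gene and nucleus, made with Cell Ranger 7.0.0 per the file headers, on mm10 per the submitters' processing notes, which also name Seurat. The annotation used for counting is not given in the sources used here, and 32158 of 32285 identifiers were matched in GENCODE M21. Deposited matrices held 6836, 8789, 8223 and 6936 nuclei.

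The members and gene lists were chosen with earlier results of these data known. The authors' filter (over 7000 genes or 1% mitochondrial UMIs) was applied. No clustering or doublet caller was used. Classes were gates on marker UMIs per 10000, with limits on markers of other classes that also remove mixed nuclei (microglia at least 60, a level at which 171 nuclei lay between 40 and 60 and 75 between 60 and 80). Nuclei marked as border macrophages, T or NK cells were left out of microglia. The cut levels were set on the distribution of marker UMIs alone, after the files were seen. DAM- and IRM-marked nuclei needed 2 genes of their list after thinning to 1000 UMIs with a fixed seed. UMIs were summed per library and class and tested with edgeR 4.0.16 (TMM, filterByExpr, quasi-likelihood test) in R 4.3.3, with Benjamini-Hochberg adjustment over all genes tested and a threshold of 0.05. Shares were compared with exact permutation tests over libraries (scipy 1.17.1, Python 3.11.15), with 95% Wilson intervals. Some edgeR fits were tried on simulated counts first. These were age in microglia-like and in excitatory neuron-like nuclei, DAM marking, and microglia-like against other classes. The simulated counts had no effect of mouse, and the remaining fits were not simulated.

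Named were the 9 members and Gclc, up to 8 called genes of each pathway list per comparison, 16 further genes fixed by name, and the 3 genes most like each member with at least 100 UMIs. Some genes that this rule names are not reported here. Alternatives were DESeq2 1.42.0, RLE size factors, no filter on low counts, stricter gates, each library left out, no nucleus filter, the replicate block, another DAM cut, thinned sums and keeping immune-marked nuclei. Whether the libraries came from separate litters is not stated, and p-values measure no spread beyond these mice. In fits with mouse as a block they rest on the differences within mice. An SE beside a fitted difference is the size of that difference over the square root of the F statistic. In it edgeR shares spread between genes, so it is not the SE of the values of the mice. Libraries of the same number carry the same batch label at both ages, which pairs them. The differences between replicates at the ages correlated over genes at 0.00512 in microglia-like and -0.13 in excitatory neuron-like nuclei. Over genes the pairing thus comes from the labels and not from the data. The level of Tnf in microglia-like nuclei did follow the batch label.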

Additional observations from a re-analysis of the deposited data

Results flagged for a closer look

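Tnf was counted in nuclei outside the classes compared, which is what singled it out: the T or NK cell-marked nuclei of 6M-2 held 5 Tnf UMIs, above the 3 counts taken as the limit of a count of 0. All 5 were in 1 of 6 such nuclei. The 7 T or NK cell-marked nuclei of 6M-1 and the 1 of 3M-1 had no Tnf UMI, and 3M-2 had no such nucleus, so the ages were not compared.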

How the results depend on the processing

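Of 347 refits of single members, 317 kept the direction and side of the threshold, 4 were no longer called (Cxcl16 by DAM marking with DESeq2, 0.91, without the mouse as a block, without 3M-2 and without 6M-2), 1 became called (Ccl4 between neuron classes with no filter on low counts) and 25 changed sign, all of members not called. Not by leaving out a library, signs changed in the DAM difference by age with the stricter gate (Ccl3 0.018, Tnf 0.53) and with 1 more DAM gene needed (Ccl3 0.52, Ccl12 2.05, Tnf 1.88), and for Cxcl16 between neuron classes with the stricter gate (0.69). The cause was not tested. With no filter on low counts, 9 members were called between microglia-like and other classes, 4 between neuron classes and 1 by age in inhibitory neuron-like nuclei. The share of all genes called without the filter is not reported here, so these counts have no background beside them. Over all alternatives, calls among all genes ran from 8233 to 10311 between microglia-like and other classes. Between neuron classes they ran from 4706 to 8637.

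Leaving out each library, the log2 change with age in microglia-like nuclei ran from -0.82 to 0.10 for Ccl3, -0.65 to 0.18 for Ccl4, -1.02 to 0.55 for Ccl12, -0.058 to 0.67 for Cxcl16, -0.65 to 0.74 for Cx3cl1 and -1.64 to 0.85 for Tnf. In excitatory neuron-like nuclei it ran from -0.17 to 1.82 for Ccl4 and -1.03 to 1.56 for Il1b, and in OPC-like nuclei from -0.12 to 0.21 for Cx3cl1. The DAM difference by age ran from -1.67 to 0.17 for Ccl12, -1.75 to 0.26 for Cxcl16 and -6.59 to 2.20 for Tnf. Between neuron classes Ccl3 ran from -1.14 to 0.52, Ccl4 from -1.44 to 0.31 and Cxcl16 from -0.67 to 0.041. Shares of 2 members did not overlap between ages, of 1 other member after thinning to 1500 UMIs (Ccl2, on 1 or 2 nuclei a library), and of 5 to 6 when a library was left out, where 1 library against 2 separates more easily.

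The replicate block by batch number left 0 members called by age in each class. It moved the count over all genes from 59 to 164 in microglia-like, 1 to 17 in excitatory neuron-like, 2 to 44 in oligodendrocyte-like, 1 to 21 in OPC-like and 0 to 2 in astrocyte-like nuclei. Without the mouse as a block the DAM count over all genes went from 716 to 255, and the count by age from 36 to 0. Beside Cxcl16 by DAM marking, adding the batch block or removing the mouse block changed no member's call.

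Counts over all genes by age ran from 23 (DESeq2) to 773 (without 3M-2) in microglia-like nuclei, 0 to 2116 in excitatory and 0 to 1586 in inhibitory neuron-like nuclei, 0 to 881 in oligodendrocyte-like, 1 to 135 in OPC-like and 0 to 31 in astrocyte-like nuclei, each highest without 3M-2. For DAM marking they ran from 255 to 718 (293 with DESeq2, 474 without 3M-1), and for its difference by age from 0 to 36. With 2 to 20 UMIs in a library, Ccl2, Il1b, Tnf and Ccrl2 are limited by depth.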

Other observations

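Atf3, a stress-induced transcription factor of the immediate early list, was chosen after its values were seen. It had 44 UMIs in DAM-marked and 14 in other microglia-like nuclei, at 45.03 ± 18.3 against 4.96 ± 2.50 CPM (SD, n = 4), without overlap, but did not pass the filter on low counts. Ccl5 and Cxcl10, which are not in the IRM list, were also chosen after their values were seen. Ccl5, a chemokine of the pathway list, had 15 UMIs in IRM-marked and 3 in other nuclei and was higher in 4 of 4 mice (20.6 ± 14.5 against 0.815 ± 1.05 CPM, no test). Cxcl10, a chemokine induced by interferon, was at 137 ± 69.8 against 4.96 ± 8.58 CPM, with 104 of its 113 UMIs in IRM-marked nuclei, but few nuclei carried them, with 3, 2, 4 and 3 IRM-marked nuclei holding a UMI in the 4 libraries.

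Some members were detected outside microglia in single UMIs. Cxcl16 was found in 14 OPC-like nuclei with 1 UMI each (3, 2, 8 and 1 in the libraries). Its mean of 5.15 CPM did not overlap the inhibitory neuron-like nuclei at 0.710. Only 6M-1 had more than 3 counts. The lowest OPC-like level, 1.65 CPM in 6M-2, was 1 UMI, against a highest inhibitory level of 1.44. How many of all genes separate the same way was not counted. Il1b was found in 29 excitatory neuron-like nuclei, 26 of them with 1 UMI, and in no inhibitory neuron-like nucleus. Because Il1b overlaps Il1bos on the opposite strand, which of the genes gave these UMIs cannot be told apart.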
